A study of Homo sapiens with 16 samples.

Results

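The comparison described here set the 2 libraries labelled zdna4_CL against the 2 labelled zdna3_CL and left the CC arm out, so that it used 4 of the 16 libraries of the series, taken by their titles. The source was total RNA of U2OS cells, an established line from a human osteosarcoma, and the labels give each library a genotype that joins a number (zdna1 to zdna4) to an arm (CC or CL), with 2 replicates for each of the 8 genotypes. The labels do not explain the numbers or the arms, name no drug, dose or time, and do not say whether replicates came from separate cultures, so neither group is called a control and each p-value may measure technical spread alone. The title of the series names MYC, Z-DNA and FACT, the histone chaperone built from SUPT16H and SSRP1. Each number also has an extra reference sequence of its own, called the contig here, counted beside the human genes. The 4 libraries of zdna1 CL and zdna2 CL entered the statistical model to steady its estimate of the spread, and their levels are given for orientation. Differences are zdna4 CL minus zdna3 CL, so a lower gene was less abundant in zdna4 CL.

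Early-response genes such as FOS, JUN and EGR1 are switched on within minutes of a growth factor, stress or mechanical signal through transcription factors already present in the cell, and the FOS and JUN proteins pair to form AP-1. The coactivator YAP and its DNA-binding partners of the TEAD family drive a second group of genes, among them CCN1 and CCN2, when cells spread on a stiff support, and many of these genes also respond to TGF beta. MYC pairs with MAX on E-boxes and is known for driving ribosome production and growth, and it is itself an early-response gene. Mitosis genes, in contrast, peak as cells enter division.

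The zdna4 CL libraries held 310187 and 225177 reads assigned to human genes and the zdna3 CL libraries 79181 and 83269, so 1 read stood for 3.22 and 4.43 CPM in zdna4 CL but for 12.9 and 12.1 CPM in zdna3 CL (CPM, reads scaled to an equal human-gene total in each library). The contig took 21.2% ± 0.580 of all assigned reads in zdna3 CL and 1.34% ± 0.0843 in zdna4 CL (SD, n = 2), and it was left out of the CPM totals. Depth and contig share thus ran with the groups and cannot be told apart from them. Gene counts of the 2 zdna3 CL libraries were not told apart from sampling noise (chi-square 1954 on 1865 degrees of freedom, p = 0.0739). Those of the 2 zdna4 CL libraries differed beyond it (chi-square 6086 on 5826 degrees of freedom, p = 0.00856). The test covered 1866 genes in zdna3 CL and 5827 in the deeper zdna4 CL, so the 2 p-values do not compare the spread of the groups. The contig shares of the 2 zdna3 CL libraries differed (Fisher's exact test, p = 5.33e-06), and these libraries were kept as 2. Genes of the mesenchymal and osteosarcoma list were present in all 4 libraries at a summed 7186 to 8917 CPM, with 12 of 14 members abundant enough to test, of which FN1 and CD44 were lower in zdna4 CL. None of the 12 blood or 8 endothelial markers reached the level for testing, with 8 and 4 of them without a read in the 4 libraries and PECAM1, CDH5 and the globin genes among those at 0. Of 12 epithelial markers only KRT8 and KRT18 could be tested, and KRT18 was lower in zdna4 CL. CLDN7, GRHL2 and OVOL1 had no read, and the list summed to 1035 and 1189 CPM in zdna3 CL and to 823 and 833 CPM in zdna4 CL. Of 12 nerve and muscle markers only TUBB3 could be tested, 3 had no read, and the sums were 272 and 255 CPM in zdna3 CL against 216 and 155 CPM in zdna4 CL. The 422 olfactory receptor genes, which this cell type is not known to use, summed to 207 and 425 CPM in zdna3 CL and to 119 and 106 CPM in zdna4 CL, and their part in the results below was not tested.

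The test covered 4641 genes whose mean over the 8 CL libraries reached 50 CPM, and 277 (5.97%) differed between zdna4 CL and zdna3 CL at an adjusted p under 0.05 by limma, 137 (2.95%) higher and 140 (3.02%) lower in zdna4 CL. The quasi-likelihood test of edgeR called 363 genes (7.82%), and 262 genes (5.65%) were called by both tools. Among the lower genes, 91 fell more than 2-fold and 15 more than 4-fold, led by NFATC2, EGR1, CCN2 and FOSB. Among the higher genes, 102 rose more than 2-fold and 16 more than 4-fold, with SHOC1, MALAT1 and DDIT4 near the top. The median change over all tested genes was 0.02 on the log2 scale, with quartiles at -0.34 and 0.41. Changes are on the log2 scale of CPM plus 10, which understates the change of low genes. All these values are relative to the human-gene total: on the scale of the values as the authors deposited them, the median of all genes lay at 1.24, with 3702 genes called higher and 18 lower, and changes below are relative to that shift.

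**Figure D1:**
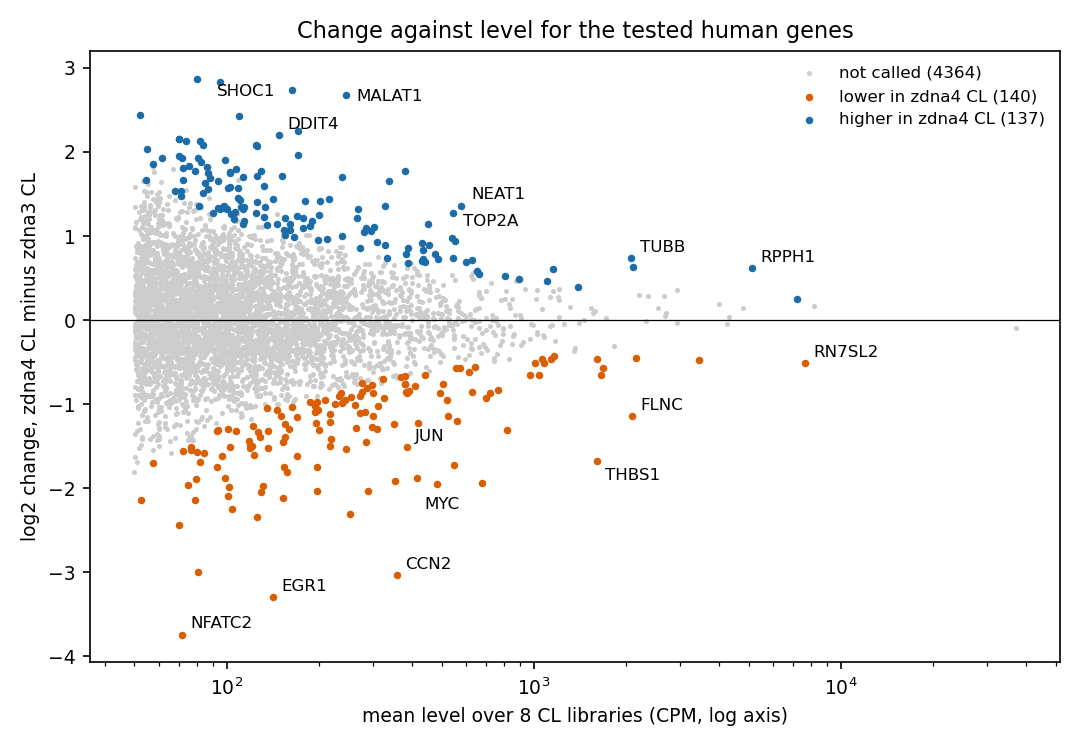
Each point is 1 of 4641 tested genes, with its mean level over the 8 CL libraries (CPM, log axis) on the horizontal axis and the log2 change, zdna4 CL minus zdna3 CL, on the vertical axis. The 137 genes called higher (blue) and 140 called lower (orange) lie on both sides of 0, and EGR1 (-3.30), CCN2 (-3.04) and NFATC2 (-3.74) are the lowest of the points with names.

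The called genes were also set beside the other CL libraries. The mean of zdna1 CL and zdna2 CL lay between the zdna3 CL and zdna4 CL means for 114 of the 137 higher and 120 of the 140 lower genes, and for 47.0% of all tested genes. Zdna3 CL was the farther of both groups from that mean for 102 of the higher and 94 of the lower genes, and for 58.9% of all tested genes. Over the lower genes the median difference from zdna1 CL and zdna2 CL was 0.76 in zdna3 CL and -0.40 in zdna4 CL (log2), and over the higher genes it was -0.86 and 0.38. These are descriptions without a test: choosing genes by the difference between zdna3 CL and zdna4 CL itself favours another mean lying between them, and the model gave the shallow zdna3 CL libraries a weight of 0.515 each, against 1.82 for zdna4 CL.

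The upstream sequences of 3 lower genes are printed first, because each carries matches to a motif known for a class of factor: EGR1 for serum response factor, which acts on early-response genes, CCN2 for TEAD, and DUSP1 for cAMP-responsive and E-box factors. They are RefSeq promoters of build GRCh38.p14, from 250 bases before to 50 after the annotated start, in the direction of the gene, at chr5:138465229-138465528 on the plus strand for EGR1, chr6:131951323-131951622 on the minus strand for CCN2 and chr5:172771146-172771445 on the minus strand for DUSP1. Capitals mark 2 CArG boxes in EGR1, 3 copies of GGAATG in CCN2, and 1 TGACGTCA and 1 CACGTG in DUSP1. The CG, CA and TG repeats searched further below are not marked: DUSP1 also holds CGCGCG and TGTGTG, and CCN2 holds CACACA.
EGR1: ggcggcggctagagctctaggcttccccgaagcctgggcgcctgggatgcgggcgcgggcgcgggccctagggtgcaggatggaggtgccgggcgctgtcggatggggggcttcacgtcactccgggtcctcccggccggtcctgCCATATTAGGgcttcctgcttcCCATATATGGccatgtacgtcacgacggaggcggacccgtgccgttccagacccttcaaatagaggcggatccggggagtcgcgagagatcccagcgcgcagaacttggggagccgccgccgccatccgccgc
CCN2: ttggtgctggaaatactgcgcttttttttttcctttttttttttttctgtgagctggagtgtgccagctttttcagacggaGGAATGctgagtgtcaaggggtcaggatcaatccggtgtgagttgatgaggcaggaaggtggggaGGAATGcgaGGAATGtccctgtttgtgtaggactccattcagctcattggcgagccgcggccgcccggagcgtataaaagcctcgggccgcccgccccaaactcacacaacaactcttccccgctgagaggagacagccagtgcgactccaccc
DUSP1: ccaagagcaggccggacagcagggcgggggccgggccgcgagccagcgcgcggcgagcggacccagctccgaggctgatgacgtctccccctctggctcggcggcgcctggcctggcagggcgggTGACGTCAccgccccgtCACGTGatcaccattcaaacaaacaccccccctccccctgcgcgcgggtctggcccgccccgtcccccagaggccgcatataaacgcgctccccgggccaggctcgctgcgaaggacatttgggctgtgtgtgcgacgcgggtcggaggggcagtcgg

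EGR1, a zinc-finger transcription factor of the early response (hg19 chr5:137801168-137804992, plus strand), stood at 35.4 and 31.0 CPM in the zdna4 CL libraries and at 427 and 400.4 CPM in the zdna3 CL libraries. The groups lay far apart, with 18 reads in all in zdna4 CL and 66 in the less deeply sequenced zdna3 CL, and zdna1 CL and zdna2 CL, at no more than 77.7 CPM, were near zdna4 CL. The log2 change was -3.30 ± 0.39 (SE), with an adjusted p of 3.71e-07 by limma. FOSB, an AP-1 subunit, was at 28.9 and 17.7 CPM in zdna4 CL and at 168 and 376 CPM in zdna3 CL (11.7-fold lower in zdna4 CL, limma adjusted p = 0.00101). Its 2 zdna3 CL libraries differed from each other, and both lay above all 6 others, which ran from 5.80 to 28.9 CPM. FOSB reached the 50 CPM mean only because zdna3 CL was high, so that order is no separate support. Without zdna3 CL replicate 2 FOSB fell below the level for testing. JUN, the partner of FOS in AP-1, was at 248 and 323 CPM against 880.1 and 776 CPM, a 2.90-fold lower mean in zdna4 CL (limma adjusted p = 2.58e-05). ATF3, a stress-induced member of the same family, was at 64.3 and 93.0 CPM against 311 and 437 CPM, 4.75-fold lower (limma adjusted p = 2.37e-04). In JUN and ATF3, as in EGR1, zdna1 CL and zdna2 CL did not reach the zdna3 CL level.

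Of the 32 early-response and AP-1 genes listed, 19 were tested: 7 were lower in zdna4 CL (background 3.02%), none was higher and 12 did not pass. The list's median change was -1.40, and 17 of 19 changes were below 0, against 2227 of 4641 over all tested genes. The other 3 lower members were FOSL1, FOS and DUSP1. FOSL1, an AP-1 subunit of adherent cells, was the member for which zdna4 CL stood apart: 51.5 and 48.7 CPM, against 207 and 194 CPM in zdna3 CL and 126 to 238 CPM in zdna1 CL and zdna2 CL. FOS was at 67.5 and 57.6 CPM against 246 and 267 CPM in zdna3 CL (limma adjusted p = 0.00528). DUSP1, a phosphatase that switches off stress kinases, was at 70.7 and 70.9 CPM against 207 and 231 CPM (limma adjusted p = 0.0107). JUNB and IER2 had changes of -1.52 ± 0.54 and -1.42 ± 0.54 and did not pass the test (limma adjusted p = 0.0912 and 0.119). FOS and DUSP1 were named after their values were seen, and neither was called when either zdna3 CL library was left out. Between 3 and 8 members of the list were lower in each of the 4 fits without 1 library. The median of the list relative to zdna1 CL and zdna2 CL was 0.72 in zdna3 CL and -0.20 in zdna4 CL. The filter used the mean over all 8 CL libraries, and FOSB, FOS and JUNB reached it only through their zdna3 CL level. That choice favours changes below 0 in this list. With a filter of 200 CPM 3 members were tested, 1 of them higher and 1 lower, with a median of -0.17.

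NFATC2, ARC and TNFAIP3, which also respond to signals, were among the genes with the largest falls. NFATC2, a calcium-regulated transcription factor (hg19 chr20:50003500-50179378, minus strand), was at 6.43 and 8.86 CPM in zdna4 CL and at 220.0 and 231 CPM in zdna3 CL. That is 4 reads against 36, a 29.5-fold lower mean CPM in zdna4 CL, and zdna1 CL and zdna2 CL were at 17.4 to 38.5 CPM, so zdna3 CL was the group set apart. Without either zdna3 CL library NFATC2 fell below the level for testing. ARC, an early-response gene best known from neurons, was at 41.8 and 31.0 CPM against 272 and 182 CPM. TNFAIP3, which restrains NF-kappa B signalling, was at 19.3 and 17.7 CPM against 155 and 133 CPM. The NF-kappa B and inflammation list had 6 tested members of 20, of which only TNFAIP3 was called (background 3.02%). All 6 had a change below 0 (median -0.96), where 2227 of 4641 tested genes did so. TNFAIP3 itself reached the 50 CPM mean only through its zdna3 CL level, which favours a change below 0. PPP1R15A, which restarts translation after stress, was at 106 and 137 CPM against 505 and 546 CPM (log2 change -2.03 ± 0.25, limma adjusted p = 7.97e-07), with zdna1 CL and zdna2 CL at 147 to 354 CPM.

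MYC (hg19 chr8:128747680-128755197, plus strand) was at 244 and 257 CPM in zdna4 CL and at 945 and 1056 CPM in zdna3 CL. The groups were 3.99-fold apart, and zdna1 CL (350.5 and 231 CPM) and zdna2 CL (445 and 348 CPM) lay at or somewhat above zdna4 CL. The log2 change was -1.95 ± 0.21 (limma adjusted p = 6.97e-08), and MYC was called in each of the 4 fits without 1 library. Its partner MAX did not pass the test (57.9 and 66.5 CPM against 77.7 and 72.8 CPM, limma adjusted p = 0.794). Of 15 tested genes of the MYC network, MYC was the only one called.

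MYC targets and ribosome production genes were read from lists of their own. Of 27 tested MYC targets 4 were lower (background 3.02%) and none higher, with a median of -0.09 that turned to 0.03 when the scaling factors were taken over every row of the files. The count was 1 without zdna3 CL replicate 1 and 2 without replicate 2. The 4 were TFRC, the transferrin receptor that brings in iron, ODC1, the first enzyme of polyamine synthesis, and the nucleolar proteins NCL and NOLC1. TFRC was at 54.7 and 17.7 CPM against 142 and 218 CPM, and NOLC1 was at 235 and 253 CPM against 453 and 558 CPM. Of 44 tested ribosome biogenesis genes 7 were lower and none higher, and 36 had a change below 0 (median -0.46). Without either zdna3 CL library 3 were lower. PES1, a factor of the large subunit, was at 154 and 173 CPM against 401 and 413 CPM (log2 change -1.27 ± 0.23, limma adjusted p = 3.33e-04). DDX21, a nucleolar helicase, was at 547 and 452 CPM against 1048 and 764 CPM. Both zdna4 CL libraries lay below both zdna3 CL libraries for 25 of the 44, where 25.5% of all tested genes did so. Summed over the listed ribosome biogenesis genes, zdna2 CL (13292 and 12982.5 CPM) was above zdna3 CL (12515 and 11914 CPM). Zdna1 CL (8615 and 9854 CPM) was nearer to zdna4 CL (8856 and 8843 CPM). The higher level was thus not particular to zdna3 CL. Of 75 tested ribosomal protein genes 3 were lower, a share near the background of 3.02%, and 72 did not pass, with a median of -0.12 that turned to 0.02 with factors over every row. Of these genes 1 was lower without zdna3 CL replicate 1 or zdna4 CL replicate 2, and none without zdna3 CL replicate 2. EIF3B, a subunit of the initiation factor that loads messages onto ribosomes, was at 495 and 532 CPM against 945 and 1031 CPM, and 3 of 32 tested translation factors were lower, 1 of them without zdna3 CL replicate 1.

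CCN2, a secreted matricellular protein and standard YAP target (hg19 chr6:132269317-132272512, minus strand), was at 80.4 and 88.6 CPM in zdna4 CL and at 802 and 728 CPM in zdna3 CL. The other CL libraries were between, at 218 to 342 CPM, so zdna4 CL was the lowest and zdna3 CL the highest of the 4 groups without overlap. The log2 change was -3.04 ± 0.24 (limma adjusted p = 6.36e-11). THBS1, an adhesive glycoprotein of the matrix, was at 881 and 837 CPM against 2951 and 2608 CPM (log2 change -1.68 ± 0.12, limma adjusted p = 1.91e-12). CCN1, the close relative of CCN2, was at 264 and 284 CPM against 919 and 934 CPM. ANKRD1, a nuclear YAP target, was at 189.7 and 124 CPM against 544 and 679 CPM. In THBS1 and CCN1 the order of the groups was the same as in CCN2, with zdna1 CL and zdna2 CL in the middle and no overlap with either end.

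Of 19 tested YAP and TGF beta targets, 8 were lower (background 3.02%), none higher and 11 did not pass, with a median of -0.43. Among the 8 were CCN2, CCN1, ANKRD1, THBS1, AMOTL2, PMEPA1 and BHLHE40, and the members that did not pass ranged up to 0.96 (SKIL, a TGF beta target itself). AXL (0.25), a receptor kinase, TEAD1 (0.11), the DNA-binding partner of YAP, and TGFB2 (0.37), a TGF beta ligand, were not called. The count was 5 without either zdna3 CL library and 8 and 6 without 1 zdna4 CL library. On the deposited scale the list's median was 0.80, against 1.24 for all genes.

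**Figure D2:**
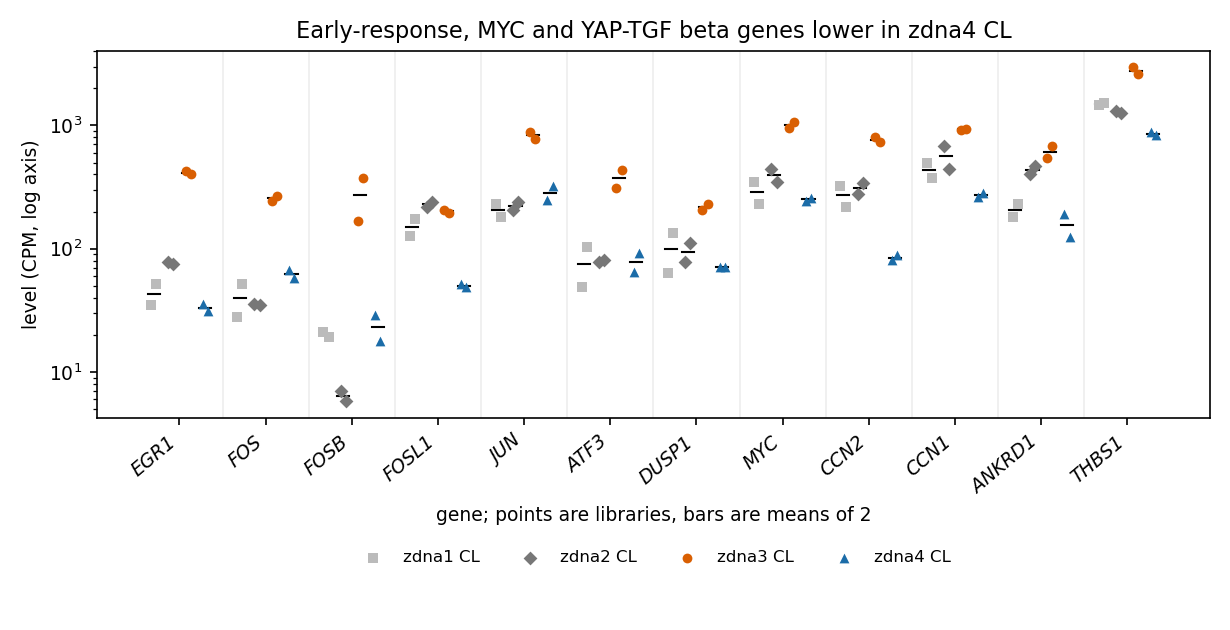
Levels (CPM, log axis) of 12 genes lower in zdna4 CL, with 1 point per library and a bar for the mean of each group's 2 libraries. Zdna3 CL (orange) is above zdna4 CL (blue) in each gene, and zdna1 CL and zdna2 CL (greys) lie close to zdna4 CL for EGR1, FOS, JUN and ATF3 but between the others for CCN2 and THBS1.

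Some genes of the cell surface were lower, and most of that list did not pass. CD44, a hyaluronan receptor, was at 196 and 182 CPM in zdna4 CL and at 712 and 728 CPM in zdna3 CL, with 314 to 438 CPM in zdna1 CL and zdna2 CL (log2 change -1.88 ± 0.21, limma adjusted p = 1.21e-07). The integrin ITGB5 was at 93.3 and 84.2 CPM against 388 and 400.4 CPM, and ITGA6 was at 125 and 75.3 CPM against 285 and 231 CPM. CAVIN1, a coat protein of caveolae, was at 518 and 620.2 CPM against 1333 and 1492 CPM. Of 21 tested integrin and adhesion genes 5 were lower (background 3.02%) and 1, L1CAM, was higher (background 2.95%), with a median of -0.25. The other 15 members did not pass, and 3 were lower without zdna3 CL replicate 1.

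In the extracellular matrix list 6 of 25 tested genes were lower (background 3.02%) and 2 higher (background 2.95%). The list's median was -0.07 and turned to 0.06 with factors over every row. None of its genes was called without zdna3 CL replicate 2, and 2 were lower and 1 higher without replicate 1. FN1, the fibronectin gene, was at 1331 and 1178 CPM against 1864 and 2075 CPM (limma adjusted p = 3.33e-04). The basement-membrane collagens COL4A1 (-1.52 ± 0.38) and COL4A2 (-0.92 ± 0.22), which are neighbours on chromosome 13, fell together, while IGFBP5, which binds insulin-like growth factors, rose to 379 and 478 CPM from 207 and 182 CPM. FLNC, an actin crosslinker and one of the most abundant genes called, was at 1431 and 1413 CPM against 3184 and 3106 CPM (log2 change -1.14 ± 0.10, limma adjusted p = 6.39e-10). PLEC, which links filaments to adhesion sites, was at 3113 and 3110.1 CPM against 4452 and 4234 CPM. Of 34 tested cytoskeleton genes 3 were lower (FLNC, PLEC and MYL12B, background 3.02%) and 1, RDX, was higher, a share near the background of 2.95%. TGM2, which crosslinks matrix proteins, was at 113 and 53.2 CPM against 414 and 437 CPM, and EMP1, a membrane protein, was at 38.6 and 39.9 CPM against 233 and 169.9 CPM.

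MALAT1, a nuclear noncoding RNA of splicing speckles (hg19 chr11:65265209-65273983, plus strand), was at 476 and 434 CPM in zdna4 CL and at 64.7 and 60.7 CPM in zdna3 CL. The groups were 7.26-fold apart, with zdna1 CL at 126 and 160.3 CPM and zdna2 CL at 297 and 336 CPM between them. The log2 change was 2.68 ± 0.27 (limma adjusted p = 1.35e-08), on 246 reads in zdna4 CL and 10 in zdna3 CL. NEAT1, its neighbour on chromosome 11 and the scaffold of paraspeckles, was at 917 and 899 CPM against 311 and 388 CPM (log2 change 1.36 ± 0.20, limma adjusted p = 1.44e-05). It too was highest in zdna4 CL, with 359.7 to 666 CPM in zdna1 CL and zdna2 CL.

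Among short structured RNAs the direction depended on the gene. RPPH1, the RNA of ribonuclease P, was at 5377 and 5627 CPM against 3481 and 3688 CPM, with zdna1 CL and zdna2 CL at 4676 to 6758 CPM, so zdna3 CL was the low group. The spliceosomal RNA gene RNU5E-1 was at 2084 and 2384 CPM against 1294 and 1589 CPM (limma adjusted p = 7.52e-04). RNU12, of the minor spliceosome, was at 415 and 545 CPM against 324 and 194 CPM. The near-identical signal recognition particle genes RN7SL1 and RN7SL2 were called in opposite directions, at 6904 and 7594 CPM against 6135 and 5981 CPM for RN7SL1 and 6171 and 6769.5 CPM against 9538 and 8857 CPM for RN7SL2, and reads of such copies cannot be fully told apart. RN7SL1 lies inside the RPS29 locus, and strand was not used in counting. Of 17 tested structured RNAs 7 were higher (background 2.95%) and 1 lower (median 0.29), counting MALAT1 and NEAT1. Without zdna3 CL replicate 2 the list had 4 higher members and a median of 0.09, with 8 of 17 changes below 0, and without zdna4 CL replicate 2 it had 4 higher members. Most RNAs of this list are known to lack a poly(A) tail.

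Mitosis genes mostly had changes above 0, and 7 of them were called higher. TOP2A, the topoisomerase that untangles chromosomes before they separate (hg19 chr17:38544777-38574148, minus strand), was at 917 and 877 CPM in zdna4 CL and at 479 and 279 CPM in zdna3 CL. Both zdna4 CL libraries were above all 6 others, since zdna1 CL and zdna2 CL ran from 389 to 533 CPM. The log2 change was 1.27 ± 0.19 (limma adjusted p = 2.54e-05). CENPF, a kinetochore protein, was at 843 and 837 CPM against 414 and 449 CPM (limma adjusted p = 4.46e-04). ASPM, a spindle-pole protein, was at 225 and 315 CPM against 64.7 and 84.9 CPM (limma adjusted p = 5.59e-04). CDCA2, which guides a phosphatase to chromosomes, was at 164 and 168 CPM against 12.9 and 60.7 CPM. NDC80, the outer kinetochore subunit that grips microtubules, was at 193 and 177 CPM against 64.7 and 60.7 CPM. In zdna3 CL CDCA2 rested on 6 reads and NDC80 on 10.

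Of 62 mitosis genes listed, 52 were tested: 7 were higher in zdna4 CL (background 2.95%), none was lower and 45 did not pass. Of the 52 changes 51 were above 0, with a median of 0.59, and in 40 of the 52 both zdna4 CL libraries lay above both zdna3 CL libraries, where 25.9% of all tested genes did so. Relative to zdna1 CL and zdna2 CL the list's median was 0.72 in zdna4 CL and 0.06 in zdna3 CL, whereas in the early-response list zdna3 CL lay farther from that mean. The count of 7 became 4 without either zdna3 CL library and 6 without either zdna4 CL library. Of 32 tested S-phase genes CCND1 alone was called, and it was lower (77.2 and 128 CPM against 311 and 218 CPM), with a list median of 0.03. CCND1, cyclin D1, acts in G1 and is itself induced by growth signals. Of 31 tested histone genes 5 were lower (background 3.02%), with a median of -0.37, among them H2BC11 at 251 and 261 CPM against 557 and 558 CPM. Their messages are made in S phase, and both groups' medians were above zdna1 CL and zdna2 CL, by 0.85 in zdna3 CL and 0.48 in zdna4 CL. No histone gene was called without zdna3 CL replicate 1 or without replicate 2.

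**Figure D3:**
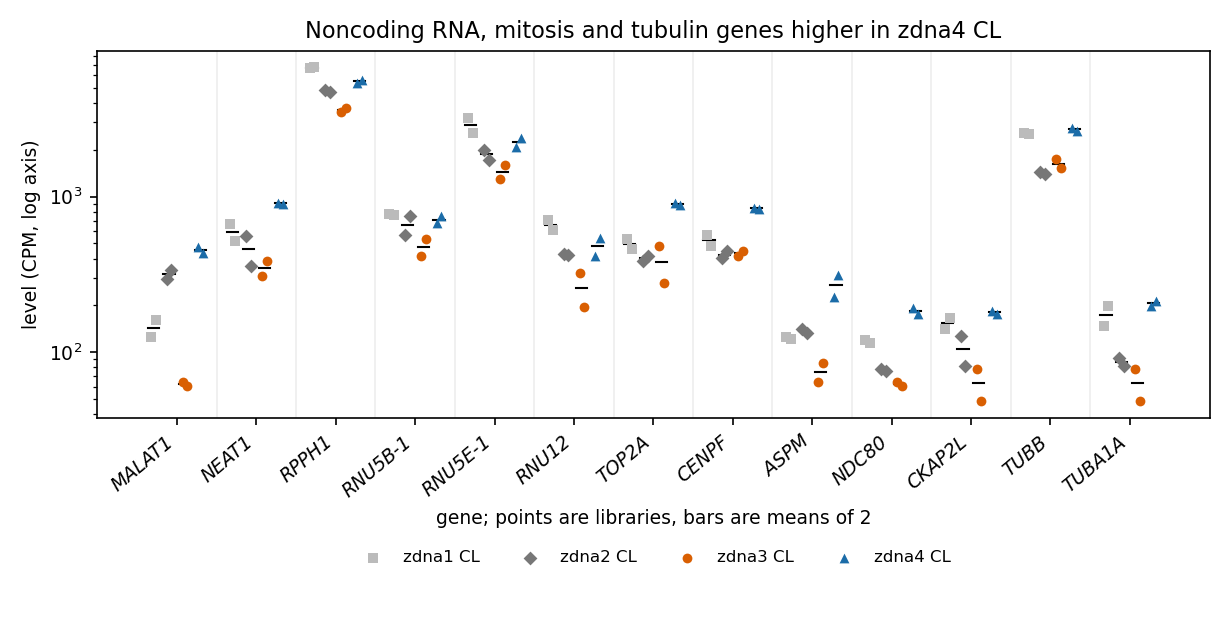
Levels (CPM, log axis) of 13 genes higher in zdna4 CL, with 1 point per library and a bar for each group's mean. Zdna4 CL (blue) is above zdna3 CL (orange) in each gene; it is the highest group for MALAT1, NEAT1 and the 5 mitosis genes, while zdna1 CL is as high or higher for RPPH1 and the spliceosomal RNAs.

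Tubulin genes gave 2 higher members of 11 tested (background 2.95%) and none lower, with a median of 0.14 and 2 of 11 changes below 0. Without zdna3 CL replicate 1 the median turned to -0.05, with 7 of 11 changes below 0. Without replicate 2 it was 0.32, with 1 below 0. TUBB was at 2778 and 2636 CPM against 1734 and 1517 CPM (log2 change 0.74 ± 0.10, limma adjusted p = 9.01e-06). TUBA1A was at 199 and 213 CPM against 77.7 and 48.5 CPM, with 10 reads in zdna3 CL. In TUBB zdna1 CL (2572 and 2519.7 CPM) was close to zdna4 CL and zdna2 CL (1442 and 1398 CPM) close to zdna3 CL.

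Of 26 tested genes of the ATF4 and amino acid response, 5 were higher (background 2.95%) and none lower (median 0.20). DDIT4, a stress-induced brake on mTOR, was at 129 and 244 CPM against 38.8 and 24.3 CPM, with zdna1 CL and zdna2 CL at 113 to 294 CPM, so zdna3 CL was the low group. SLC7A11, the cystine importer, was at 138 and 155 CPM against 51.8 and 12.1 CPM. DDIT4 and SLC7A11 had 5 reads each over both zdna3 CL libraries. The glutamine carrier SLC38A2 and the transfer RNA ligase IARS1 rose by 0.71 ± 0.20 and 0.69 ± 0.19. Without zdna3 CL replicate 2 the list's count was 1 and its median turned to -0.11, with 14 of 26 changes below 0, and the count was 3 without zdna3 CL replicate 1 or zdna4 CL replicate 2.

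Other lists had few called members, to be read beside the 2.95% of all tested genes called higher and the 3.02% called lower. Among 17 tested p53 targets MDM2, the ligase that degrades p53, was higher (515 and 558 CPM against 298 and 364 CPM), and GADD45A and AEN, of growth arrest and apoptosis, were lower (-1.42 ± 0.27 and -1.02 ± 0.28). The p53 list's median was 0.31, with 13 of 17 changes above 0 and 4 below. In cholesterol metabolism 2 of 17 tested genes were called, both lower, and neither without zdna3 CL replicate 2. HMGCS1, of the synthesis pathway, was at 203 and 124 CPM against 349 and 339.7 CPM. In the iron and antioxidant list 3 of 20 tested genes were lower, and 1 was without zdna3 CL replicate 1. Of these the metal-binding MT2A was at 61.1 and 35.4 CPM against 207 and 243 CPM. In the heat shock list HSPA8 was lower (-0.46 ± 0.11) and HSPB1 higher (0.73 ± 0.20), and the other 17 of 19 did not pass. Neither was called without zdna3 CL replicate 1 or without replicate 2. In DNA repair 2 of 31 tested genes were higher, BRCA2 among them, on 4 reads in zdna3 CL, and it was not called without zdna3 CL replicate 2.

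SHOC1, best known from meiotic recombination, had the largest called rise among genes with at least 4 reads in each group. Its level went from 38.8 and 48.5 CPM, on 7 reads in zdna3 CL, to 424 and 284 CPM. Zdna1 CL (154 and 186 CPM) was above zdna2 CL (77.7 and 87.0 CPM). Another 5 genes were named because they had fewer than 4 reads in zdna3 CL: N4BP1 with 40 reads in zdna4 CL against 1, ZSCAN31 with 107 against 3, SOS1 with 67 against 2, and NBEAL1 and CDC42EP3 with 62 against 3 each. For N4BP1 the depth-corrected ratio was 11.9, with an exact 95% interval from 2.02 to 482, and for ZSCAN31 it was 10.6, from 3.54 to 52.3. These intervals cover counting error only, and no gene called lower had so few reads in zdna4 CL.

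Genes tied to the title of the series mostly did not pass. The FACT subunits SUPT16H (315 and 297 CPM against 466 and 303 CPM) and SSRP1 (441 and 461 CPM against 531 and 643 CPM) had changes of -0.29 ± 0.22 and -0.37 ± 0.19 (limma adjusted p = 0.501 and 0.275). ADAR, which edits double-stranded RNA and has a Z-DNA-binding domain, was at 447 and 434 CPM against 453 and 364 CPM. ZBP1, the sensor of Z-form nucleic acid, had 1 read in 1 zdna4 CL library and none in zdna3 CL, and was not tested. TOP1 (-0.23 ± 0.29) and TOP2B (0.31 ± 0.34) did not pass, in contrast to TOP2A. Of 9 tested genes for Z-form and double-stranded RNA binding and of 5 tested interferon genes none was called.

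**Figure D4:**
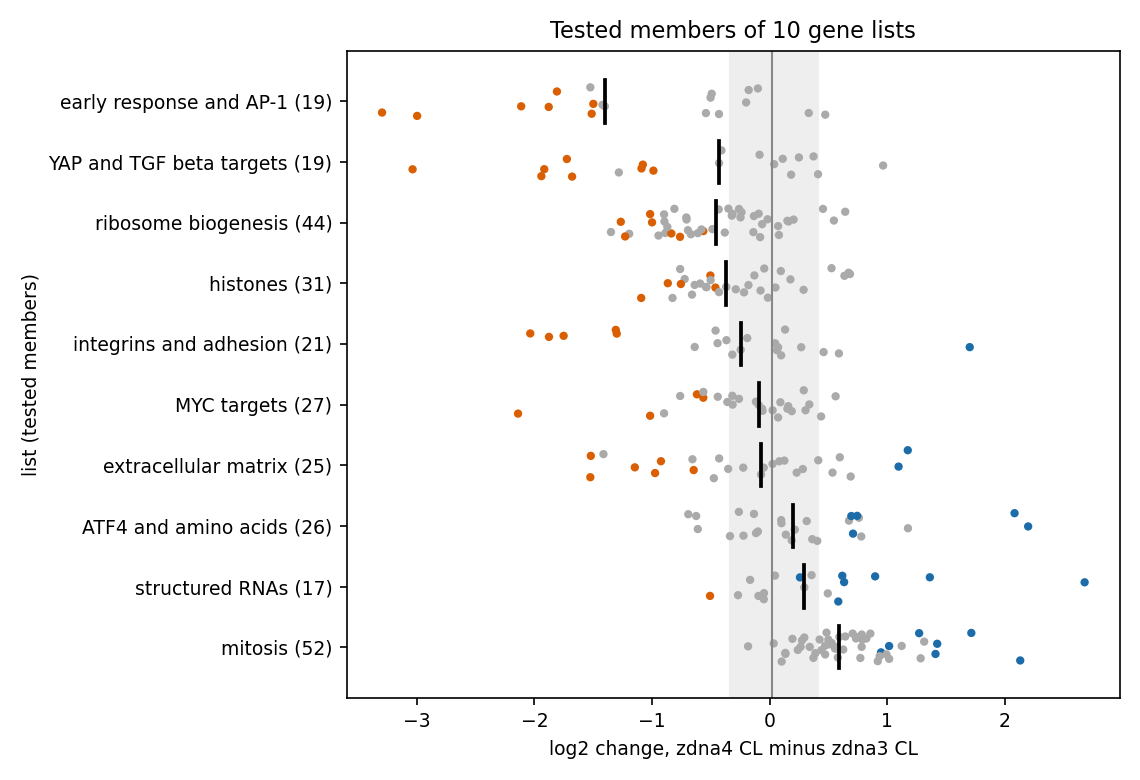
Each point is 1 tested member of 10 gene lists, placed by its log2 change, zdna4 CL minus zdna3 CL, with called members in blue (higher) or orange (lower) and black bars for list medians; the grey band and line give the quartiles and median of all tested genes. The medians run from -1.40 for the early-response list to 0.59 for mitosis.

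Gene length ran with the change. With the tested genes cut into 5 classes of equal size by exonic length, the median change rose from -0.11 in the shortest to 0.22 in the longest, and calls went from 16 higher and 42 lower in the shortest class to 57 higher and 19 lower in the longest. Genes called higher had a median exonic length of 6239 bases, genes called lower 3370.5 and all tested genes 4510. When the median deviation of each of 10 length classes was taken out of each library, an alternative chosen after seeing the data, 241 genes were called, 110 higher and 131 lower, and the medians of the early-response and mitosis lists were -1.26 and 0.69. The part of RNA quality or library making in this trend was not tested.

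**Figure D5:**
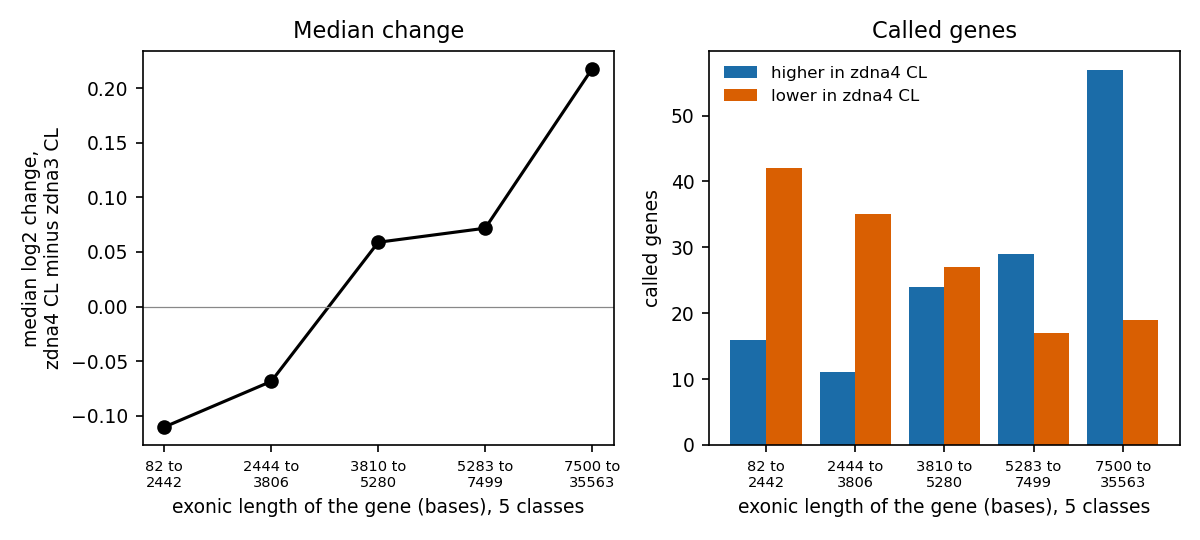
Tested genes in 5 classes by exonic length (bases, horizontal axis): the left panel gives the median log2 change, zdna4 CL minus zdna3 CL, and the right panel the number of genes called higher (blue) or lower (orange). The median rises from -0.11 to 0.22, and the longest class holds 57 of the 137 higher genes.

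Along the genome the changes were spread over all chromosomes. Chromosome medians ran from -0.12 on chromosome 19, where 1 of 254 tested genes was called higher and 13 lower, to 0.18 on chromosome 21. Of 80 windows of 10 Mb with at least 20 tested genes, the highest median was 0.51, over the 25 genes at 50 to 60 Mb of chromosome 17, and the lowest was -0.32, at 80 to 90 Mb of chromosome 16. The chromosome 17 window held PRR11 and VMP1 among the called genes.

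Promoters were searched on both strands for motifs in the windows described above, which the RefSeq table gives for 3820 of 4641 tested genes, 102 of the 137 higher and 110 of the 140 lower. The CArG box, the site of serum response factor, was in 5 lower genes (4.55%), EGR1, ACIN1, CAPN2, RCAN1 and AKAP12, in no higher gene, and in 1.28% of tested genes and 1.29% of all promoters. The AP-1 site TGACTCA was in 7.27% of lower, 1.96% of higher and 3.04% of tested genes, and in 4.92% of all promoters. The cAMP response element TGACGTCA was in 6.36%, 3.92%, 3.98% and 1.98%, and the TEAD motif GGAATG in 9.09%, 11.8%, 10.9% and 14.05%. The E-box CACGTG, the site of MYC and MAX, was in 15.5% of lower and 16.7% of higher genes, against 11.5% of tested genes and 7.43% of all promoters. Alternating CG, as CGCGCG, was in 30% of lower and 35.3% of higher genes against 31.5% of tested genes, and CACACA or TGTGTG in 10%, 11.8% and 10.8%; such repeats are known to favour Z-DNA. The motifs of serum response factor, AP-1, cAMP and TEAD were chosen after the called genes were known, none of these motifs contains another, and a match describes letters in a window, not a bound site.

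Support from single libraries differed between genes. Of the 277 called genes 19 higher and 32 lower were called again in each of the 4 fits that left out 1 library, and of the called genes named above these were ANKRD1, ARC, ASPM, CAVIN1, CCN1, CCN2, CD44, CENPF, DDIT4, EGR1, EIF3B, FLNC, FOSL1, GADD45A, ITGB5, JUN, MALAT1, MT2A, MYC, NEAT1, PES1, PLEC, PPP1R15A, RN7SL2, RPPH1, SHOC1, SOS1, TGM2, THBS1, TNFAIP3, TOP2A, TUBB and ZSCAN31. The other called genes given with their levels lost the call in at least 1 of the 4 fits. With 2 libraries against 2 an exact permutation test of a single gene cannot give a p below 0.333, so the tests rest on the spread pooled over genes and over the 8 CL libraries.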

How the data were processed

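Trizol was used to extract RNA, and a kit of Abclonal to make libraries, per the labels' protocols. The submitters' processing notes name Trim Galore 0.6.6 for trimming, STAR for alignment, bedtools 2.29.2, and the builds hg19 and dm6. Exonic fragments were counted per gene, per the file headers, with featureCounts 2.0.1 without a strand option against hg19 plus the contig. Reads in exons that overlapping genes share therefore cannot be told apart. Some genes overlap in their whole spans (RN7SL1 and RPS29, KRT18 and KRT8, and small RNAs inside host genes), and whether they share exons was not checked. The deposited values are a scaled signal, whole multiples of 1 step per library. The constant behind the step is not given in the sources used here. Dividing by the step gave whole reads, within 0.1 read, for 100% of the nonzero values in the 4 libraries compared.

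Reads were scaled to human-gene totals and TMM factors (edgeR 4.0.16), filtered at a mean of 50 CPM over the 8 CL libraries and tested with limma 3.58.1 in R 4.3.3 on log2 of CPM plus 10, with array weights per group, a trend and Benjamini-Hochberg adjustment over 4641 genes, two-sided, called under 0.05. The contig and the CC arm were not used in the tests. The edgeR quasi-likelihood test on the recovered reads called 363 genes (144 higher, 219 lower), 262 of them shared. The fits were tested on simulated data. Of 28207 gene symbols in the files, 1182 of 1183 list symbols matched. Intervals cover counting error only.

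Named genes were up to 12 in each direction with the largest change among those called by limma and edgeR with at least 4 reads in each group, up to 5 called genes with fewer reads, the 8 most abundant called genes, 9 fixed genes and up to 4 called members of each list by p. FOS, DUSP1, JUNB, IER2, ANKRD1, NDC80, CKAP2L, CENPE, RNU5B-1, RNU12, COL4A1 and ITGA2, and the members given by change alone, were added after their values were seen. Some genes that the rules name are not reported here. The comparison, the 39 lists and the rules were chosen with earlier results of these data known.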

Additional observations from a re-analysis of the deposited data

Results flagged for a closer look

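The contig stood outside the comparisons above and had reads in all 4 libraries: 14.2 and 12.9 per 1000 human-gene reads in zdna4 CL replicates 1 and 2, and 262 and 275 in zdna3 CL replicates 1 and 2. No library without its own number's contig was analysed here, so no background level stands beside these values. The share of contig reads differed between replicates beyond counting error in zdna3 CL (Fisher's exact test, p = 5.33e-06) and zdna4 CL (p = 1.70e-04). Each number has a contig of its own, so the levels are of different sequences.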

How the results depend on the processing

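Of the 277 calls, the replicate block kept 262 among 270, library totals gave 283, edgeR 363 (219 lower), limma-voom 361 (256 lower) and DESeq2 87 (25 higher, 62 lower). The replicate block treats the replicate number as a pairing, for which deviation correlations of -0.02 to 0.02 gave no sign. Without the filter 67 of 19225 genes were called (27 higher, 40 lower), and with a filter of 200 CPM 187 of 924 were (91 higher, 96 lower). TMM factors over every row, chosen after seeing the data, gave 232 higher and 100 lower, so 69.9% of calls were higher instead of 49.5%. DESeq2 gave 28.7% and limma-voom 29.1%. Leaving out a library gave 116 to 234 calls, 67 to 105 higher and 49 to 129 lower, with 116 and 129 without zdna3 CL replicates 1 and 2. The deposited scale called 3720 genes (3702 higher, 18 lower). On that scale, whose median over all genes was 1.24, some genes that the rules name had another sign than in the main limma test. Each had a change below 0 in that test, and above 0 but at or below that median on the deposited scale: RN7SL2 (0.87), PLEC (0.89), EEF2 (0.92), FLNC (0.23), MAX (0.92), SUPT16H (1.04), SSRP1 (0.98), TOP1 (1.07), NCL (0.80), NOLC1 (0.32), ODC1 (0.73), B2M (1.10), AEN (0.29), SNORA73A (0.21), HSPA8 (0.91), HMGCS1 (0.24), SQSTM1 (0.20), HK1 (0.49), FN1 (0.72), COL4A2 (0.41), CAVIN1 (0.059), MYL12B (0.69), RPS19 (0.59), RPL31 (0.56), RPL13A (0.93), PES1 (0.056), DDX21 (0.52), EIF3B (0.42), EIF4G1 (0.85), H2BC11 (0.25), H4C5 (0.59), H1-2 (0.86), H2AC11 (0.47), PSMD2 (0.78), SUPT5H (0.47), NOTCH2 (1.16), IGF2R (0.99) and KRT18 (0.48). The cause of these differences was not tested, beyond the fewer genes or samples that a filter or a left-out library implies. No named called gene reversed under another alternative. Depth limits the zdna3 CL side, where a gene at the 50 CPM filter rests on about 4 reads per library.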
